A study of Arabidopsis thaliana with 6 samples.

Results

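Brassinosteroid synthesis and signalling genes were examined in seedlings of an Arabidopsis thaliana line that overexpresses GRF5 and in wild-type seedlings. The set was given by 10 locus codes: DWF4 (AT3G50660), CPD (AT5G05690), BR6OX2 (AT3G30180), ROT3 (AT4G36380), DET2 (AT2G38050) and DWF1 (AT3G19820) of hormone synthesis, and BAK1 (AT4G33430), BIN2 (AT4G18710), BZR1 (AT1G75080) and BES1 (AT1G19350) of hormone signalling. Of these, 8 are among the 20777 loci of the expression table; BZR1 and BES1 have no row in it and were not analysed here. The rule that lists the genes uses their locus codes and no measured value, although the list was drawn up with earlier results of these data known. No filter on low values was applied.

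The overexpressing plants were 35S::GRF5, in which the strong viral 35S promoter drives GRF5 in most cell types; GRF5 belongs to the growth-regulating factors, which control transcription during leaf growth. The comparison was with wild type, and all plants were of ecotype Col-0. The study's description speaks of a single overexpressing line. Each group had 3 biological repeats, each on an ATH1 oligonucleotide array of its own; per the labels, the vegetative part was collected at growth stage 1.03 from plants on MS medium at 22 °C, in days of 16 h light and nights of 8 h. The labels do not say whether the repeats came from separate cultures, so the p-values measure the spread between these samples.

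Brassinosteroids are plant steroid hormones made from sterols. DWF1 completes the precursor campesterol, DET2 reduces its ring system, the cytochromes P450 DWF4, CPD and ROT3 modify its side chain and ring, and BR6OX2 carries out the last oxidations. The hormone binds the receptor kinase BRI1, which then works with its co-receptor BAK1, and the signal switches off the kinase BIN2, so that the transcription factors BZR1 and BES1 become active. Active BZR1 and BES1 turn growth genes on and turn hormone synthesis genes such as DWF4 and CPD down, a feedback loop. Plants short of the hormone or unable to sense it are dwarfs with small, rounded leaves.

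The overexpressed gene was clearly seen. GRF5 (AT3G13960) read 11.3, 11.4 and 12.1 on the log2 scale in 35S::GRF5 replicates 1 to 3, against 4.73, 4.75 and 4.26 in wild type replicates 1 to 3. Array medians were 6.41 to 6.43 in 35S::GRF5 and 6.38 to 6.39 in wild type. None of the 3 leaf markers listed for a check of the tissue has a row in the table; of 3 chosen after its loci were seen, RCA, LHCA4 and CA1 averaged 14.2, 14.1 and 13.6 in 35S::GRF5 and 14.2, 14.0 and 13.7 in wild type. The shoot meristem genes STM and CLV3 averaged 5.71 and 4.25 in 35S::GRF5 and 5.82 and 4.44 in wild type. Of 4 root markers, COBL9, EXPA7 and PRP3 averaged 4.11 to 4.78 in either group, while PYK10 averaged 11.5 in 35S::GRF5 and 11.2 in wild type. The floral markers AG, AP3 and PI and the seed markers CRA1 and CRC averaged 3.42 to 4.35. In RNA of the whole vegetative part, fewer cells of a type and less RNA per cell cannot be told apart.

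No brassinosteroid gene passed the threshold between the groups. DWF1 had the largest difference of the 8, 1.26-fold higher in 35S::GRF5, followed by CPD, 1.21-fold higher, and by DWF4, whose ratio of 35S::GRF5 to wild type was 0.87; BR6OX2, ROT3, DET2, BAK1 and BIN2 had ratios between 0.99 and 1.07. With limma and Benjamini-Hochberg adjustment over all loci at 0.05, 0 of 8 were called, beside 160 of all 20777 loci (0.77%). At an unadjusted p under 0.05 there were 2 of 8, DWF1 and CPD, beside 15.5% of all loci. The groups did not overlap for 3 of 8, DWF1, CPD and DWF4, beside 21.7% of all loci. Counts this small on 8 genes cannot be set apart from those shares. Differences were above 0 for 5 of 8, beside 56.2% of all loci, and the median difference of the 8 was 0.06 log2 units, beside 0.02 for all loci.

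**Figure D1:**
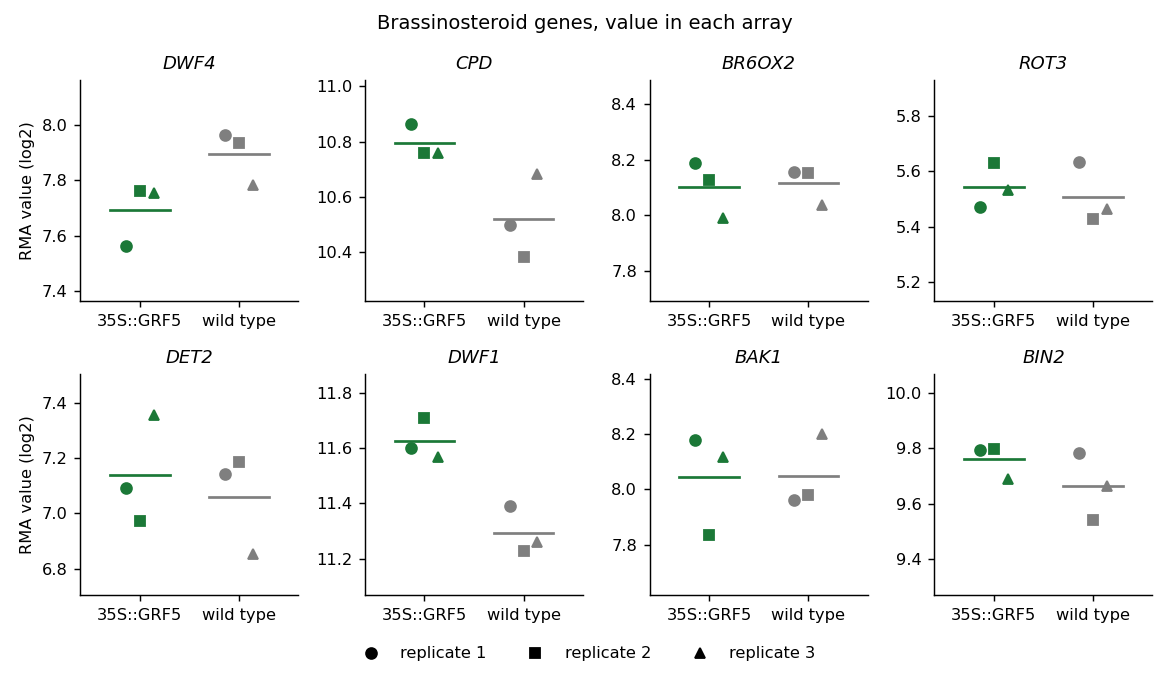
RMA value (log2) of each of the 8 measured brassinosteroid genes in every array, 35S::GRF5 on the left and wild type on the right of each panel; symbols mark the replicate and the line is the group mean of 3 arrays. Every panel spans 0.8 log2 units. The groups do not overlap for DWF4, CPD and DWF1 and overlap for the other genes.

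DWF1 is the reductase that makes campesterol, the sterol from which the hormone is built. It read 11.60, 11.71 and 11.57 in 35S::GRF5 replicates 1 to 3, against 11.39, 11.23 and 11.26 in wild type replicates 1 to 3. Every 35S::GRF5 array lay above every wild-type array, with 0.18 log2 units between the nearest pair. The difference, always 35S::GRF5 minus wild type, was 0.33 (95% interval 0.13 to 0.53, n = 3 per group; limma unadjusted p = 0.00468, adjusted p = 0.134). By this p, DWF1 ranked 727 among all loci, behind the 160 that were called. It differed by 0.29 to 0.38 with any array left out, at an unadjusted p under 0.05 in all 6 fits.

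DET2, the reductase that saturates the steroid ring, read 7.09, 6.97 and 7.36 in 35S::GRF5 and 7.14, 7.18 and 6.85 in wild type. Its highest array was 35S::GRF5 replicate 3 and its lowest wild type replicate 3. Between them, wild type replicates 1 and 2 both lay above 35S::GRF5 replicates 1 and 2. The difference was 0.08 (-0.21 to 0.36; adjusted p = 0.813), and it turned to -0.03 without 35S::GRF5 replicate 3 and to -0.02 without wild type replicate 3. DET2 had the widest interval of the 8 genes, 0.28 log2 units to either side, while the median half-width was 0.21 for the 8 and 0.23 for all loci.

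DWF4, the side-chain hydroxylase regarded as the rate-limiting step, read 7.56, 7.76 and 7.75 in 35S::GRF5, against 7.96, 7.93 and 7.78 in wild type. All 35S::GRF5 arrays were below all wild-type arrays, but only by 0.02 log2 units, between 35S::GRF5 replicate 2 and wild type replicate 3. The difference was -0.20 (-0.42 to 0.02), with an unadjusted p of 0.0676 and an adjusted p of 0.363 in limma. It was -0.25 without wild type replicate 3 and -0.13 without 35S::GRF5 replicate 1, a range wider than 1.5 times.

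CPD, the oxidase that acts on the products of DWF4, read 10.86, 10.76 and 10.76 in 35S::GRF5, against 10.50, 10.38 and 10.68 in wild type. The 3 arrays of the line lay close together, with an SD of 0.06, and wild type was more spread, with an SD of 0.15. Wild type replicate 3 came within 0.07 log2 units of the line. The difference was 0.27 (0.05 to 0.50; limma unadjusted p = 0.0225, adjusted p = 0.232), and 0.20 to 0.35 with any array left out, at an unadjusted p of 0.00764 to 0.0995. DWF4 and CPD, both targets of the feedback by BZR1 and BES1, therefore had point differences of opposite sign; whether their differences differ from each other was not tested.

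The remaining synthesis enzymes had differences near 0. ROT3, a hydroxylase known for its effect on leaf length, read 5.47, 5.63 and 5.53 in 35S::GRF5 and 5.64, 5.43 and 5.47 in wild type, with a difference of 0.04 (-0.18 to 0.25). Its sign was not stable: it was -0.0029 with arrays centred on their medians. BR6OX2, the enzyme that makes brassinolide, read 8.19, 8.13 and 7.99 in 35S::GRF5 and 8.16, 8.15 and 8.04 in wild type. The BR6OX2 difference was -0.01 (-0.22 to 0.19; adjusted p = 0.966), and replicate 3 was the lowest array in both groups.

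BAK1, the co-receptor kinase, read 8.18, 7.84 and 8.12 in 35S::GRF5, against 7.96, 7.98 and 8.20 in wild type. The lowest of the 6 values was 35S::GRF5 replicate 2 and the highest wild type replicate 3. Between them, 35S::GRF5 replicates 1 and 3 both lay above wild type replicates 1 and 2. The difference was -0.0029 (-0.26 to 0.26; adjusted p = 0.994). Leaving out 35S::GRF5 replicate 2 gave 0.10, and leaving out replicate 1 of the line gave -0.07. BIN2, the kinase that holds BZR1 and BES1 inactive, read 9.79, 9.80 and 9.69 in 35S::GRF5 and 9.78, 9.54 and 9.67 in wild type. Its difference was 0.10 (-0.12 to 0.31; adjusted p = 0.679), with wild type replicate 1 above 35S::GRF5 replicate 3; it was 0.04 without wild type replicate 2 and 0.16 without wild type replicate 1.

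**Figure D2:**
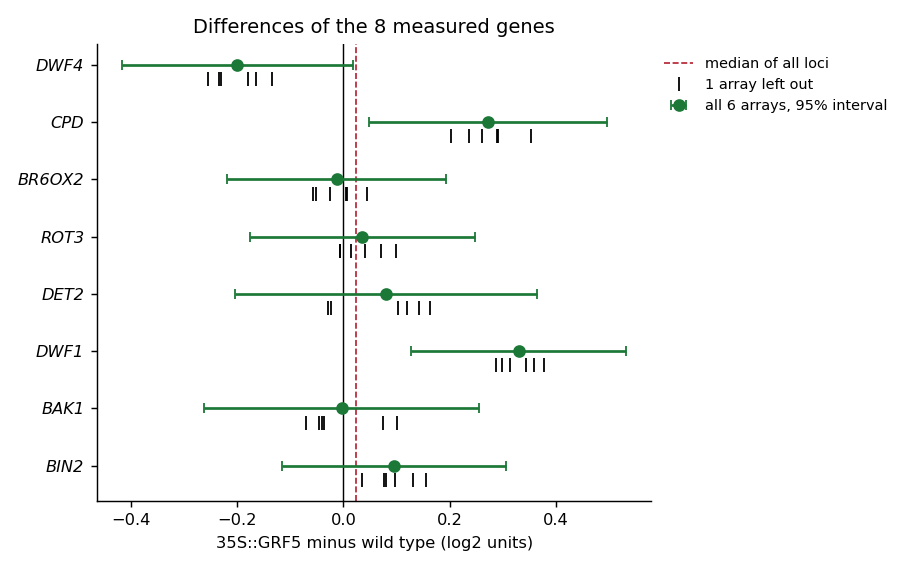
Difference of each gene, 35S::GRF5 minus wild type in log2 units, with its 95% interval over all 6 arrays (circle and bar), the 6 values with 1 array left out (ticks) and the median of all loci at 0.02 (dashed line). The intervals of DWF1 and CPD lie above 0; those of the other 6 genes include it.

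The intervals bound the size of what could have gone unseen. For BR6OX2, ROT3, BAK1 and BIN2 they allow ratios of 35S::GRF5 to wild type from 0.83 to 1.24, for DET2 from 0.87 to 1.29, for DWF4 from 0.75 to 1.01, for CPD from 1.03 to 1.41 and for DWF1 from 1.09 to 1.45. A 2-fold change in either direction lies outside every one of the 8 intervals. In simulated data of the same size, limma called 2.39% of changes of 0.25 log2 units, 55.2% of changes of 0.5 and 99.4% of changes of 1. The differences of DWF1 (0.33) and CPD (0.27) lay between 0.25 and 0.5, and that of DWF4 (-0.20) was smaller in size than 0.25. No rate was simulated at those sizes or for these genes alone.

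**Figure D3:**
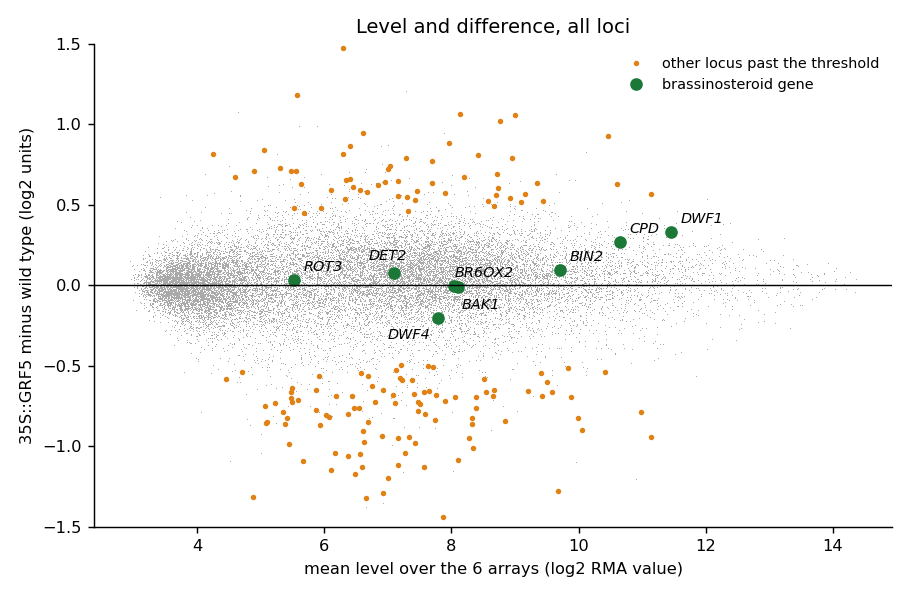
Difference (35S::GRF5 minus wild type, log2 units) against the mean RMA value over the 6 arrays for all loci (grey), the loci past the threshold (orange) and the 8 brassinosteroid genes (green); 10 loci beyond 1.5 log2 units are outside the plot. The 8 genes lie between -0.20 and 0.33.

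Loci with the most similar pattern over the arrays were found after each locus was set to its own mean over the 6 arrays. For DWF1, whose values varied about their mean by 0.18 log2 units (root mean square), the nearest loci were AT2G04230, AT1G30440 and AT4G19160, at root mean square distances of 0.01, 0.02 and 0.03. For CPD, which varied by 0.17, they were EMB2016, NAI1 and AT2G10940, at 0.02, 0.03 and 0.04. For DWF4, which varied by 0.13, they were ABCI18, AT4G17950 and SLP2, at 0.01, 0.01 and 0.02. None of these 9 loci passed the threshold (adjusted p 0.124 to 0.387). With 6 arrays and 20777 loci, matches as near as these are a description of the arrays and no more.

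The wider pathway was read from a list of 58 other genes, of which 51 are in the table. None was called by limma over all loci, and 5 of 51 had an unadjusted p under 0.05, 4 of them higher and 1 lower in 35S::GRF5, beside 9.49% of all loci that were higher and 5.97% that were lower at that p. The groups did not overlap for 4 of the 51, 3 higher and 1 lower, beside 13.2% and 8.45% of all loci. The median difference of the 51 was 0.03 log2 units.

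**Figure D4:**
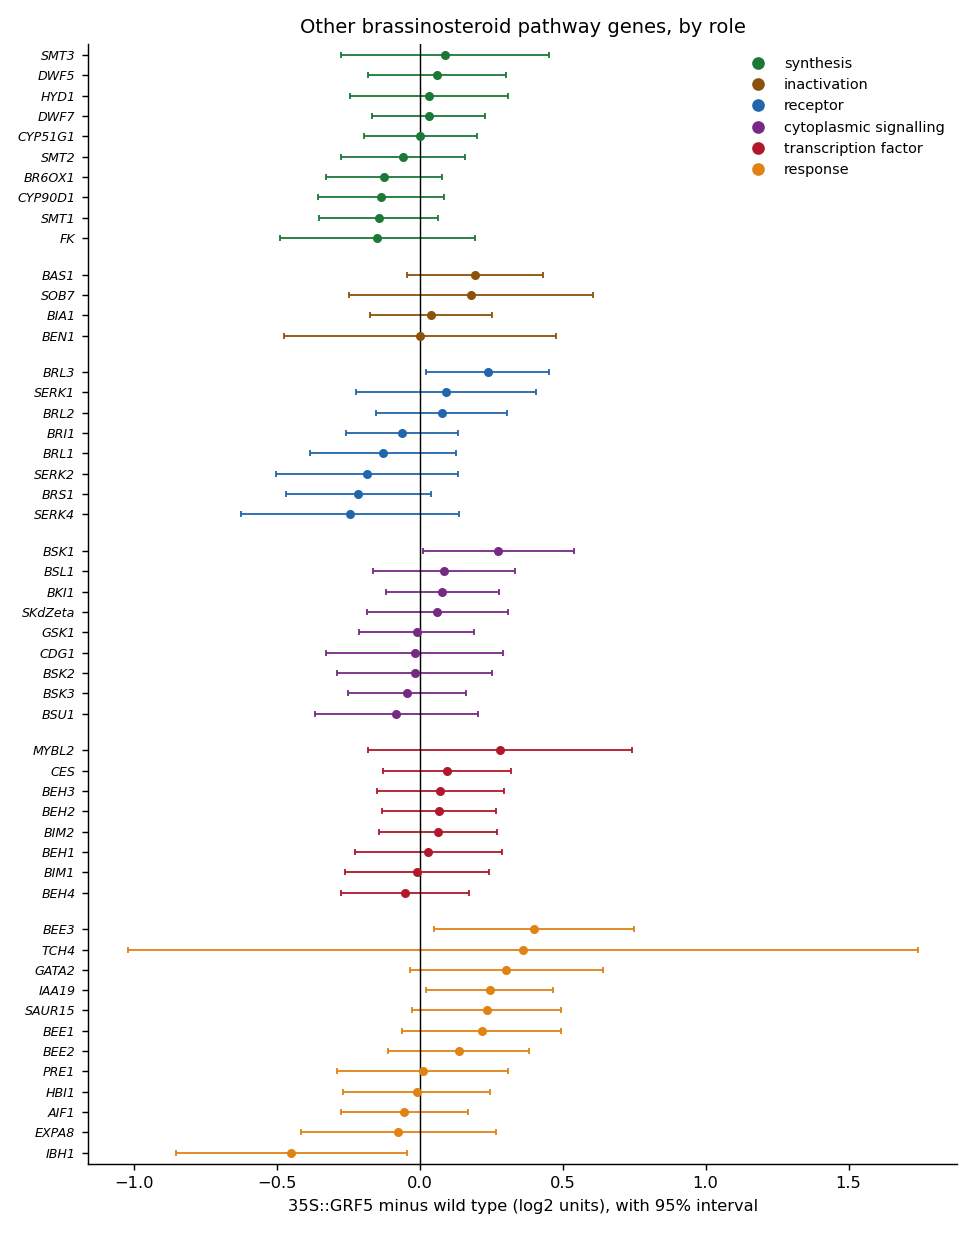
Difference (35S::GRF5 minus wild type, log2 units) of the 51 other pathway genes with 95% intervals, grouped by role and sorted within it. The intervals of BRL3, BSK1, BEE3 and IAA19 lie above 0 and that of IBH1 below it; TCH4 has the widest.

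Synthesis genes beyond the 6 above had differences near 0. All 10 listed genes were measured, 5 with positive and 5 with negative differences from -0.15 to 0.09, beside 56.2% of all loci above 0. At an unadjusted p under 0.05 there were 0 of 10, beside 15.5% of all loci. The most distant was FK, a sterol reductase acting well before campesterol, at 7.38, 7.84 and 8.06 in 35S::GRF5 and 7.94, 7.94 and 7.85 in wild type. The FK difference was -0.15 (-0.49 to 0.19), with 0.04 when replicate 1 of the line, its lowest array, was left out and -0.30 when replicate 3 was. All 4 measured genes of hormone inactivation had positive differences, 0.0012 to 0.19, beside 56.2% of all loci above 0. With an unadjusted p under 0.05 there were 0 of 4, beside 15.5% of all loci. Counts on 4 genes cannot be set apart from those shares. BAS1, the cytochrome P450 that inactivates brassinolide, read 6.82, 6.77 and 6.62 in 35S::GRF5 and 6.72, 6.43 and 6.48 in wild type, a difference of 0.19 (-0.05 to 0.43; adjusted p = 0.425), with wild type replicate 1 inside the range of the line.

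Among 8 receptors, co-receptors and the secreted protease BRS1, 3 had positive and 5 negative differences, beside 56.2% of all loci above 0. BRI1, the main receptor, read 9.46, 9.52 and 9.54 in 35S::GRF5 and 9.64, 9.47 and 9.59 in wild type, a difference of -0.06 (-0.26 to 0.13). BRL3, a related receptor of vascular tissue, read 5.04, 4.9999 and 5.12 in 35S::GRF5, against 4.68, 4.94 and 4.83 in wild type. Its groups did not overlap, and the difference was 0.24 (0.02 to 0.45; limma unadjusted p = 0.0335, adjusted p = 0.273). SERK4, a kinase close to BAK1 that can stand in for it, differed by -0.24 (-0.63 to 0.14), or by -0.07 without wild type replicate 3 and -0.45 without wild type replicate 2. BRS1, which acts upstream of BRI1 signalling when overexpressed, was the 1 gene whose 35S::GRF5 arrays (7.49, 7.89 and 7.79) were all below the wild-type arrays (8.00, 7.90 and 7.91), by a difference of -0.21 (-0.47 to 0.04; adjusted p = 0.403).

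Between receptor and nucleus, 9 cytoplasmic components were measured, 4 with positive and 5 with negative differences, beside 56.2% of all loci above 0. BSK1, a kinase that BRI1 phosphorylates, read 8.65, 8.23 and 8.31 in 35S::GRF5, against 8.08, 8.08 and 8.21 in wild type. The groups were apart by a narrow margin at 8.23 and 8.21, and the difference was 0.28 (0.01 to 0.54; limma unadjusted p = 0.0429, adjusted p = 0.304), or 0.15 without 35S::GRF5 replicate 1. GSK1 and SKdZeta, the closest relatives of BIN2, differed by -0.01 and 0.06. Of 8 transcription factors, 6 had positive differences, beside 56.2% of all loci. An unadjusted p under 0.05 was found for 0 of 8, beside 15.5% of all loci. Counts on 8 genes cannot be set apart from those shares. The 4 measured relatives of BZR1 and BES1 (BEH1 to BEH4) differed by 0.03, 0.07, 0.07 and -0.05. MYBL2, a repressor that works with BES1, differed by 0.28 (-0.18 to 0.74), with 35S::GRF5 replicate 1 at 10.67 and the other arrays of the line at 9.83 and 10.24, against 9.88, 9.71 and 10.29 in wild type; it was 0.07 without replicate 1 of the line and 0.49 without its replicate 2.

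Response genes gave 3 of the 5 unadjusted p under 0.05, among 12 measured, beside 15.5% of all loci at that p. Their differences were positive for 8 and negative for 4, beside 56.2% of all loci above 0, with a median of 0.18. Counts on 12 genes cannot be set apart from those shares. The list mixes genes that brassinosteroid induces with genes that its signalling represses, such as IBH1, so the signs give no direction of response. BEE1, BEE2, SAUR15 and GATA2 differed by 0.22, 0.14, 0.23 and 0.30. PRE1, HBI1, AIF1 and EXPA8 differed by 0.01, -0.01, -0.05 and -0.07. BEE3, a growth-promoting basic helix-loop-helix gene that brassinosteroid induces quickly, read 8.11, 7.70 and 8.09 in 35S::GRF5, against 7.49, 7.33 and 7.87 in wild type. Wild type replicate 3 was above 35S::GRF5 replicate 2, so the groups overlapped; the difference was 0.40 (0.05 to 0.75; limma unadjusted p = 0.0286, adjusted p = 0.257). It ranged from 0.28 without wild type replicate 2 to 0.55 without wild type replicate 3, with an unadjusted p under 0.05 in 2 of the 6 fits that leave out an array. IAA19, an auxin response repressor gene that brassinosteroid also induces, read 7.57, 7.65 and 7.70 in 35S::GRF5, against 7.30, 7.33 and 7.55 in wild type, a difference of 0.24 (0.02 to 0.46; adjusted p = 0.273).

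IBH1, a growth inhibitor gene that BZR1 represses, had the largest difference below 0 in the list. It read 6.51, 6.04 and 5.81 in 35S::GRF5, against 6.41, 6.44 and 6.86 in wild type. The groups overlapped, because 35S::GRF5 replicate 1 was above wild type replicates 1 and 2. The difference was -0.45 (-0.85 to -0.05; limma unadjusted p = 0.0326, adjusted p = 0.27), and it ranged from -0.64 when replicate 1 of the line was left out to -0.30 when its replicate 3 was.

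TCH4, a cell wall enzyme gene induced by brassinosteroid and also by touch, depended on wild type replicate 3. It read 8.23, 8.30 and 8.13 in 35S::GRF5, against 7.29, 6.57 and 9.71 in wild type. The line was even and the wild-type arrays lay on both sides of it, so the difference over all arrays was 0.36 (-1.02 to 1.74; adjusted p = 0.827). Without wild type replicate 3 it was 1.29 (0.87 to 1.71), with an adjusted p of 0.0416 in limma, the only such call among the 51 genes in any fit; over the other 13 alternatives the adjusted p was at least 0.644. BRI1, BRS1, TCH4, GSK1, SKdZeta and the 4 BEH genes were named after their values were seen. So were BEE1, BEE2, SAUR15, GATA2, PRE1, HBI1, AIF1 and EXPA8. Wild type replicate 3 was the wild-type array nearest to the line for BEE3, IAA19, CPD and DWF4. Without it their differences were 0.55, 0.32, 0.35 and -0.25, and none passed the threshold in limma (adjusted p 0.198 to 0.397). Leaving out the nearest array moves such a difference away from 0 by construction, so no conclusion is drawn from these shifts. For IBH1 and SERK4 the same array was the farthest from the line. Without it the IBH1 difference went from -0.45 to -0.30 and that of SERK4 from -0.24 to -0.07. Dropping the farthest array moves such a difference toward 0 by construction, so no conclusion is drawn from these shifts either.

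**Figure D5:**
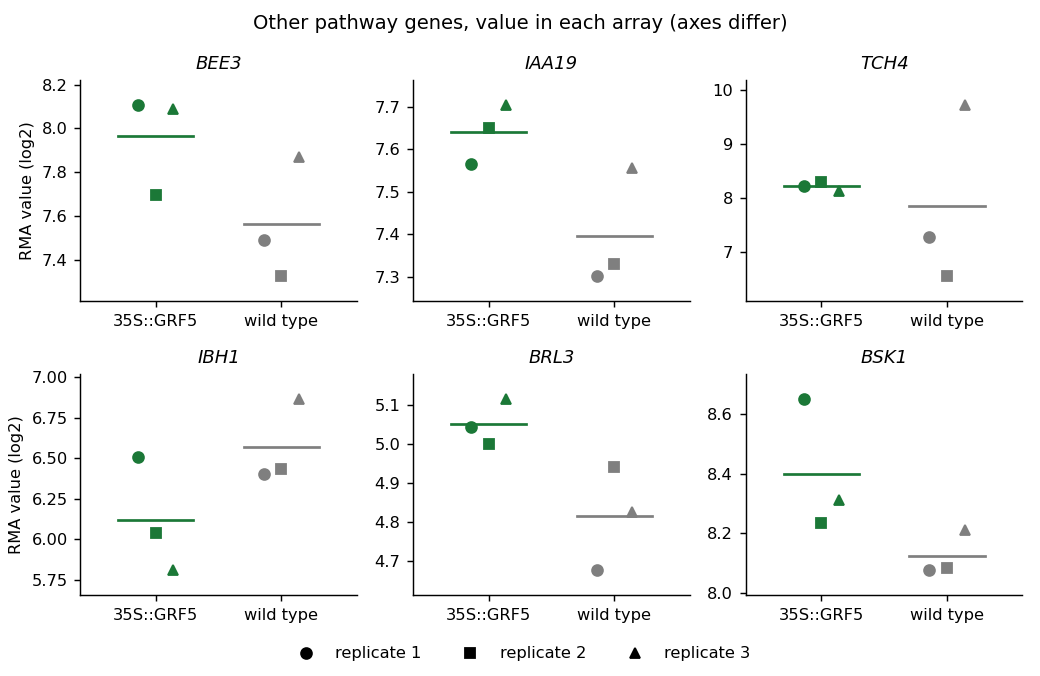
RMA value (log2) in every array for 6 other pathway genes, 35S::GRF5 on the left and wild type on the right; symbols mark the replicate, the line is the group mean of 3 arrays, and axes differ between panels. The wild-type value of TCH4 in replicate 3, at 9.71, stands above all other arrays, and BRL3, BSK1 and IAA19 have groups that do not overlap.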

How the data were processed

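The deposited values are log2 expression values produced by the authors through RMA (per the submitters' processing notes, version not given); RMA corrects background, equalises the arrays and summarises the probes. The table has 1 row per locus code; the map from probes to loci and the set of arrays normalised together are not given in the sources used here. No scanner file or detection call entered the work: whether a low value exceeds background is unknown, and levels of different genes, read by different probes, are not ranked. No batch is named in the labels.

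Groups were compared on all 20777 loci by limma (version 3.58.1, R 4.3.3; functions lmFit and eBayes, two-sided, Benjamini-Hochberg over all loci, threshold 0.05). Names came from a RefSeq gene table (TAIR10.1), which holds 20508 of the loci. All members were described; of the other pathway genes, those with an unadjusted p under 0.05 and the largest difference of each role were named, and for DWF4, CPD and members under that p the 3 nearest loci. Members and lists were chosen with earlier results of these data known. Alternatives tried were a replicate block, 2 filters on low values, 2 scalings, trend and robust estimation, array weights, unmoderated variances, and each array left out. The planned description of promoter motifs was not made, since no promoter sequence was used here. The fit was tested on simulated data, 10 runs of 20777 genes with 200 changed in each; 0.0384% of unchanged genes were called. Arrays give no read depth; precision is limited by having 3 arrays a group.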

Additional observations from a re-analysis of the deposited data

How the results depend on the processing

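Over the 14 alternatives, limma called 0 of the brassinosteroid genes in every fit; DWF1 came closest, with an adjusted p of 0.069 with trend and robust estimation. DWF1, CPD, DWF4 and BIN2 kept the sign of their differences in all 14. Without any single array, BR6OX2 kept its sign in 3 of 6 fits and ROT3, DET2 and BAK1 in 4 of 6 each; ROT3 also turned with arrays centred on their medians (-0.0029) and BAK1 with array weights (0.02). DWF4 had an unadjusted p of 0.0326 with arrays centred on their medians and of 0.0321 after quantile normalization, both with a larger difference (-0.24). Of the other pathway genes, 0 to 1 were called with an array left out, the 1 being TCH4 (1.29) without wild type replicate 3, and 0 in the other 8 alternatives. With arrays centred on their medians, BRL3, BSK1 and IAA19 had an unadjusted p of 0.066, 0.0793 and 0.0644 in limma, while BEE3 and IBH1 stayed under 0.05. The number of the 51 genes under 0.05, 5 in the main fit, was 1 with each locus's own variance and 7 with array weights.

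Over all loci, 160 calls became 252 with trend and robust estimation, 294 with array weights and 0 with each locus's own variance, where 2656 had an unadjusted p under 0.05, and 17 (without wild type replicate 1) to 186 (without 35S::GRF5 replicate 1) with an array left out; the cause was not tested. Leaving out replicates 2 and 3 in turn gave 63 and 69 calls for 35S::GRF5 and 96 and 50 for wild type. Centring the arrays gave 171 calls, 45 higher and 126 lower, against 59 higher and 101 lower as deposited. It also moved the median difference of all loci from 0.02 to -0.01 log2 units, and that of the 51 other pathway genes from 0.03 to -0.0066. The counts of differences above 0, and the share of all loci beside them, thus depend on the scaling.

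With the replicate number as a block there were 114 calls over all loci and 0 among the brassinosteroid genes. Deviations of same-numbered arrays correlated at -0.05, 0.06 and -0.11 across loci, and those of differently numbered arrays at -0.08 to 0.11. Deviations from a mean of 3 arrays sum to 0 within each group, so these values cannot decide whether the numbers pair the samples. The labels do not say whether they do.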
